A study of Caenorhabditis elegans with 18 samples.

Results

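The 10 genes described here encode sarcomere proteins of nematode body wall muscle, and were taken from the 46904 rows of the deposited gene table by their WormBase names. They are unc-54, myo-3 and unc-15 of the thick filament, lev-11, mup-2, tnt-2 and tni-3 of the thin filament, the giant proteins unc-22 and unc-89, and dim-1. RNA was sequenced from whole Caenorhabditis elegans larvae of the first stage (L1), in 18 libraries, 3 for each of 6 groups. The groups were fed and starved raga-1(ok386) mutants, fed and starved rsks-1(ok1255) mutants, and fed and starved wild type (N2). The labels give N2 as the line of all groups. Starved larvae hatched without food during 24 h in M9 buffer after adults were bleached at 20 °C, so that all groups had been starved first. Fed larvae then had OP50 bacteria for 4 h. The study asked how feeding changes transcripts in wild type and in mutants of nutrient signalling: the product of raga-1 is a RagA GTPase, through which amino acids activate TORC1, and that of rsks-1 is an S6 kinase, which TORC1 phosphorylates. Separate cultures behind the libraries of a group are not stated in the labels, and the spread that the p-values measure may then be technical.

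In a sarcomere, myosin-based thick filaments pull on actin-based thin filaments. In the nematode the thick filament has a core of paramyosin (unc-15), with myosin A (myo-3) in the middle and myosin B (unc-54), the more abundant heavy chain, in the arms. On the thin filament, tropomyosin (lev-11) and troponins T (mup-2, tnt-2) and I (tni-3) switch contraction on with calcium. Giant proteins of immunoglobulin and fibronectin domains run along the filaments: twitchin (unc-22) in the A-band and obscurin (unc-89) at the M-line. The protein of dim-1 has immunoglobulin domains and is known for stabilising body wall muscle near the dense bodies, which anchor thin filaments to the cell membrane.

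Library totals were 9929323 to 18539402 counts. All 10 genes were among the 14073 genes with enough counts to be tested, with between 432 counts (tni-3 in a fed N2 library) and 140365 counts (unc-54 in a starved raga-1 library). The mutants' own genes followed the labels. In fed and starved raga-1 larvae raga-1 itself had 0 counts in every library, against 62.4 to 65.0 CPM in fed N2 and 48.99 to 51.0 CPM in starved N2, and rsks-1 was at 22.8 to 27.8 CPM in fed and 34.6 to 41.7 CPM in starved rsks-1 mutants, against 160.4 to 178 CPM in fed and 177 to 196 CPM in starved N2. CPM here are counts per 1000000 scaled by the trimmed mean of M values (TMM), which assumes that most genes do not change. In the test described below, 36.5% of tested genes were higher and 37.4% lower on feeding in N2. By that count the assumption did not hold there. Scaling to library totals alone moves the median log2 change of all tested genes to -0.37 on feeding in N2, where TMM gives -0.07, and to 0.33 in fed raga-1 against fed N2, where TMM gives 0.01. In the other comparisons it gives medians from -0.22 to 0.17. All changes below are relative to the TMM scale. In whole larvae, a change of transcripts within muscle cells and a change in muscle's share of the RNA cannot be told apart.

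The genes lie on 4 chromosomes (Ensembl annotation, build WBcel235, transcribed from the minus strand except unc-89). On chromosome I are unc-54 (14855901 to 14863482), unc-15 (7376604 to 7383197), lev-11 (14621169 to 14631094) and unc-89 (4035702 to 4090885, plus strand). On chromosome IV is unc-22 (11972697 to 12011007), and on V are myo-3 (12226817 to 12234343) and tni-3 (16833638 to 16835128). On X are mup-2 (6408471 to 6410227), tnt-2 (8721546 to 8723550) and dim-1 (8050466 to 8058220). Genes annotated on the opposite strand within them had at most 25.8 counts on average, in clec-89 within unc-89.

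Together the 10 genes took 1.62 ± 0.0437% of all counts in fed and 1.99 ± 0.0560% in starved raga-1 larvae, 0.855 ± 0.00592% in fed and 1.51 ± 0.0138% in starved rsks-1 larvae, and 0.926 ± 0.0148% in fed and 1.23 ± 0.0216% in starved N2 larvae (all ± values are SDs over the 3 libraries of a group). Libraries of different groups did not overlap in this share.

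Between genes, levels were compared as CPM per kb of transcript, weighted over the isoforms. Isoforms missing from the annotation were given the longest transcript of the same variant. For tnt-2, 0 of 6 isoforms were in the annotation, and the longest annotated transcript of the gene (1513 bases) was used. With all isoforms of lev-11 counted, tropomyosin was highest in all 6 groups, at 2144 ± 15.8 CPM per kb in fed raga-1, 1534 ± 38.5 in fed rsks-1 and 1586 ± 15.1 in fed N2. The giant proteins were lowest. Isoforms that begin at the upstream end of lev-11 took 55.6% of its counts in starved N2, or 892 CPM. Their level per kb alone was not ranked, and others begin inside the gene. In starved larvae of all 3 genotypes unc-54 and unc-15 came next after lev-11, followed by mup-2, with unc-54 at 739 ± 3.47 and mup-2 at 402 ± 1.41 CPM per kb in starved N2. In fed larvae of all 3 genotypes mup-2 stood above both, with mup-2 at 796 ± 7.46 and unc-54 at 556 ± 11.7 CPM per kb in fed N2. The libraries of unc-54 and unc-15 overlapped in fed raga-1 and fed rsks-1, and those of unc-54 and dim-1 in fed rsks-1, so that these neighbours in the order did not differ beyond their spread. The order of the giants depends on the length used. Weighted over isoforms, unc-22 was at 18.02 ± 0.464 and unc-89 at 24.8 ± 0.392 CPM per kb in fed N2, and unc-22 at 28.6 ± 3.10 and unc-89 at 25.1 ± 1.19 in starved N2. The rsks-1 groups had the same orders, with unc-22 at 15.8 ± 0.824 and unc-89 at 20.8 ± 1.01 in fed and unc-22 at 31.4 ± 0.323 and unc-89 at 26.9 ± 0.722 in starved larvae, and in raga-1 unc-22 was below unc-89 in both states. Per kb of the longest transcript, unc-22 was above unc-89 in all 6 groups, with 16.7 ± 0.430 against 15.2 ± 0.240 CPM per kb in fed N2. On that length dim-1 was at 272 ± 7.61 CPM per kb in fed rsks-1 and no longer overlapped unc-54.

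**Figure D1:**
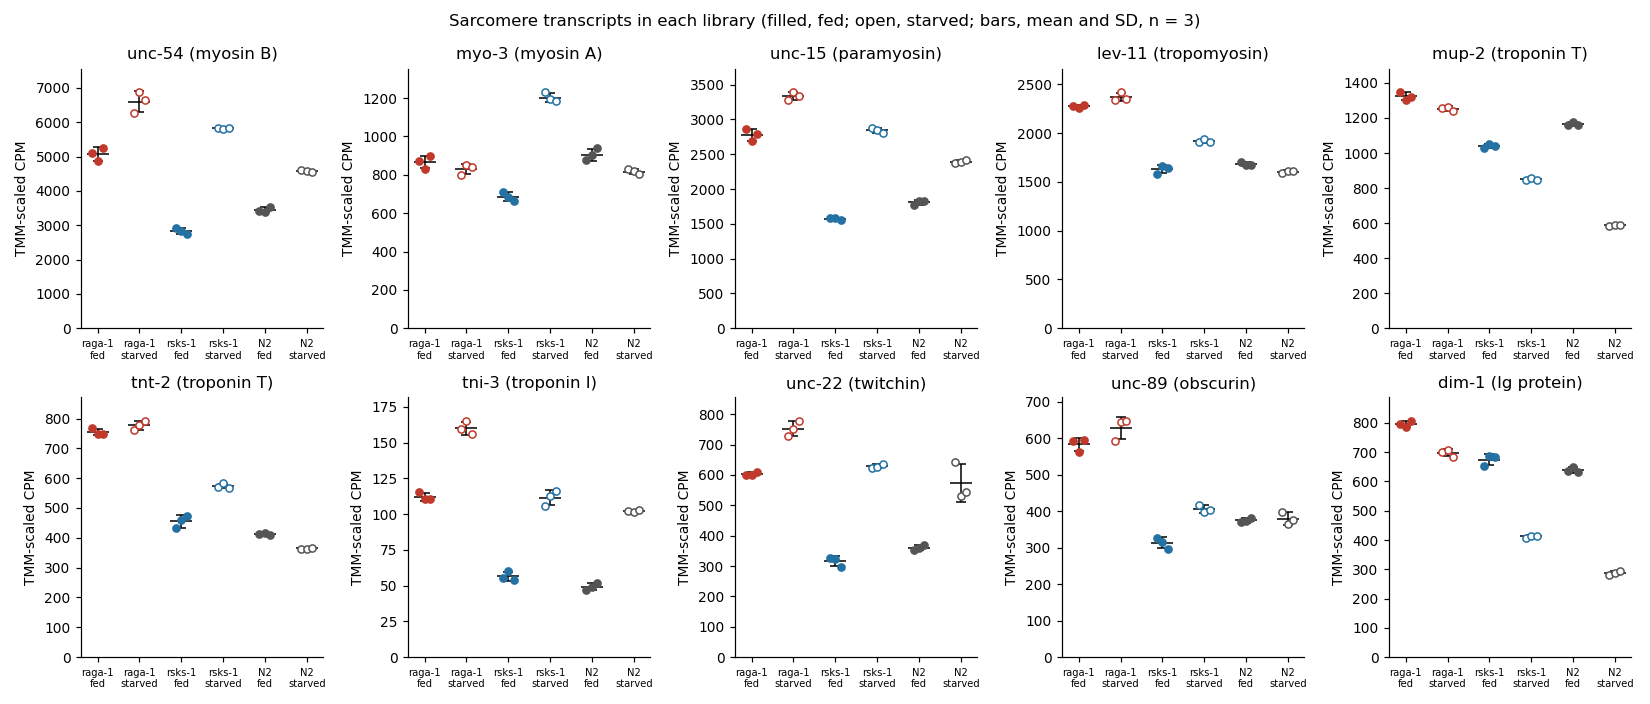
Level of each of the 10 transcripts in every library, as TMM-scaled CPM on a linear axis starting at 0, by genotype and feeding state. Filled points are fed and open points starved larvae, and bars give the mean and SD of 3 libraries. The mup-2 points of starved N2 lie at 586 to 590 CPM, below every other group, and the myo-3 points of starved rsks-1 at 1184 to 1231 CPM lie above every other group.

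The first question is what 4 h of food did to these transcripts. In fed against starved N2, 5 of the 10 genes rose (myo-3, lev-11, mup-2, tnt-2 and dim-1), 4 fell (unc-54, unc-15, tni-3 and unc-22) and unc-89 did not pass the test. Among all tested genes, 36.5% rose and 37.4% fell, so on the TMM scale the members' counts stand near the background. What differs is which genes rose and by how much. With library totals alone, 2 of the 10 members rose and 8 fell, where 3835 of 14073 genes rose and 6933 fell. A call is an adjusted p below 0.05 in edgeR's quasi-likelihood test with Benjamini-Hochberg adjustment over all 14073 genes. Of all genes called on feeding in N2, 49.4% were higher in fed larvae, against 35.6% with library totals alone. In raga-1 mutants 3 members rose and 6 fell, beside 29.4% and 32.9% of all genes. In rsks-1 mutants 2 rose and 8 fell, beside 35.7% and 35.2% of all genes, and 50.4% of all called genes were higher in fed larvae, against 38.9% with library totals alone.

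Myosin B, the main motor of body wall muscle, fell on feeding in all 3 genotypes. In raga-1 larvae unc-54 was at 5113, 4864 and 5240.0 CPM when fed, against 6273, 6875 and 6656 CPM when starved. In rsks-1 larvae it was at 2911, 2833 and 2731 CPM when fed, against 5833, 5791 and 5833 CPM when starved. In N2 larvae it was at 3423, 3396 and 3533 CPM when fed, against 4607, 4577 and 4565 CPM when starved. Fed and starved libraries stayed apart in each genotype, with the widest gap in rsks-1. The log2 change was -0.38 (SE 0.03, adjusted p = 6.41e-26) in raga-1, -1.04 (SE 0.03, adjusted p = 7.93e-64) in rsks-1 and -0.41 (SE 0.03, adjusted p = 2.25e-28) in N2. The fall in rsks-1 was larger than in N2 (difference of log2 changes -0.63, SE 0.04, adjusted p = 5e-30). The difference between raga-1 and N2 was 0.03 (SE 0.04, adjusted p = 0.541), and it passed the test with library totals alone (0.23, adjusted p = 1.42e-07) and when raga-1 and N2 libraries were fitted alone (0.13, adjusted p = 0.00641).

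Myosin A, encoded by myo-3, moved otherwise. In rsks-1 larvae myo-3 was at 710.1, 685 and 662 CPM when fed, against 1231, 1194 and 1184 CPM when starved. In N2 it was at 876, 904 and 938 CPM when fed, against 828, 819.9 and 803 CPM when starved. In raga-1 it was at 874, 833 and 897 CPM when fed, against 799, 849 and 842 CPM when starved. Starved rsks-1 libraries stood above all others, fed N2 libraries lay above starved ones by little, and fed and starved raga-1 libraries overlapped. The fall in rsks-1 (log2 change -0.81, SE 0.03, adjusted p = 8.18e-53) differed from the change in N2 (difference -0.96, SE 0.04, adjusted p = 1.58e-43). In N2 myo-3 rose on the TMM scale (0.15, SE 0.03, adjusted p = 4.19e-06) and fell with library totals alone (-0.15). In raga-1 the change was 0.06 (SE 0.03, adjusted p = 0.0475), a call lost without starved raga-1 replicate 1 (0.04, adjusted p = 0.287), fed raga-1 replicate 1 (0.06, adjusted p = 0.1) or fed raga-1 replicate 3 (0.04, adjusted p = 0.241), with the value 0.10 without fed raga-1 replicate 2.

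Paramyosin, the filament core, went with myosin B. It was at 2863, 2691 and 2788 CPM in fed raga-1, against 3281, 3391 and 3337 CPM in starved raga-1. In fed rsks-1 it was at 1582, 1577 and 1548 CPM, against 2873, 2848 and 2804 CPM in starved rsks-1. In fed N2 it was at 1765, 1830.4 and 1827 CPM, against 2379, 2386 and 2418 CPM in starved N2. In each genotype every fed library of unc-15 lay below every starved one. The log2 changes were -0.26 in raga-1, -0.86 in rsks-1 and -0.41 in N2 (SE 0.03 each, adjusted p = 2.77e-17, 1.6e-61 and 3.67e-30), with the fall in raga-1 smaller than in N2 (difference 0.14, SE 0.04, adjusted p = 0.000479) and that in rsks-1 larger (difference -0.45, SE 0.04, adjusted p = 2.58e-21).

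**Figure D2:**
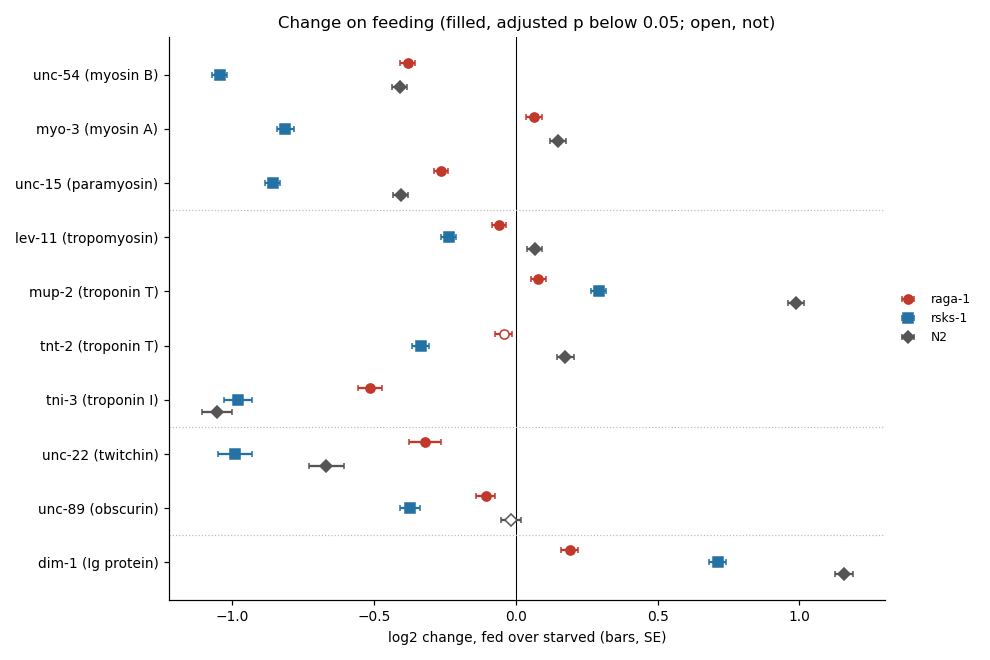
Log2 change in fed over starved larvae for each gene in raga-1, rsks-1 and N2 (edgeR quasi-likelihood fit, bars SE). Filled symbols passed an adjusted p of 0.05 and open symbols did not. The rsks-1 symbols lie left of the N2 symbols for every gene except tni-3, and the raga-1 symbols lie between -0.51 and 0.19, whereas those of N2 reach from -1.05 to 1.16. All symbols are on the TMM scale. With library totals alone, which is not drawn, the N2 values of myo-3, lev-11 and tnt-2 are below 0, as are the raga-1 values of myo-3 and mup-2.

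On the thin filament, mup-2 had the largest rise on feeding in N2 among the 7 thick and thin filament genes of the 10. It was at 1161, 1179 and 1159 CPM in fed N2, against 586, 590.4 and 588 CPM in starved N2. In fed rsks-1 it was at 1029, 1052 and 1040.4 CPM, against 848, 856 and 845 CPM in starved rsks-1. In fed raga-1 it was at 1347, 1302 and 1323 CPM, against 1256, 1265 and 1238 CPM in starved raga-1. Fed libraries lay above starved ones in each genotype, and the starved raga-1 libraries lay above every N2 library, fed ones included. The log2 change was 0.08 in raga-1 (SE 0.03, adjusted p = 0.00705), 0.29 in rsks-1 (SE 0.03, adjusted p = 1.08e-18) and 0.99 in N2 (SE 0.03, adjusted p = 3.98e-65), and with library totals alone that in raga-1 was -0.02. The rise was smaller than in N2 both in raga-1 (difference -0.91, SE 0.04, adjusted p = 1.74e-45) and in rsks-1 (difference -0.69, SE 0.04, adjusted p = 9.35e-34).

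The other troponin T, tnt-2, was at 411, 416 and 408 CPM in fed N2, against 364, 363 and 367 CPM in starved N2. In fed rsks-1 it was at 432, 461 and 472 CPM, against 571, 583 and 568 CPM in starved rsks-1. Its libraries did not overlap in N2 or rsks-1, with opposite directions. It rose in N2 on the TMM scale (log2 change 0.18, SE 0.03, adjusted p = 3.01e-07) and fell with library totals alone (-0.13), and it fell in rsks-1 (-0.33, SE 0.03, adjusted p = 1.46e-19). In raga-1, with 748 to 767 CPM in fed and 763 to 791 CPM in starved libraries, which overlapped, the log2 change was -0.04 (SE 0.03, adjusted p = 0.198), and with library totals alone -0.14 (adjusted p = 8.75e-06).

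Troponin I of tni-3, the least abundant of the 10 transcripts in CPM, was at 47.1, 49.3 and 51.6 CPM in fed N2, against 102, 101 and 103 CPM in starved N2. In fed rsks-1 it was at 55.1, 60.2 and 54.2 CPM, against 106, 113 and 116 CPM in starved rsks-1. In fed raga-1 it was at 116, 111 and 110.4 CPM, against 159, 165 and 156 CPM in starved raga-1. Every fed library lay below the starved libraries of its genotype, and fed raga-1 libraries lay above every N2 library. The fall was -1.05 in N2 (SE 0.05, adjusted p = 7.2e-39) and -0.98 in rsks-1 (SE 0.05, adjusted p = 1.81e-39), with a difference of 0.07 (SE 0.07, adjusted p = 0.518). It was -0.51 in raga-1 (SE 0.04, adjusted p = 2.91e-21), smaller than in N2 (difference 0.54, SE 0.07, adjusted p = 1.83e-11).

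Tropomyosin changed by little. It was at 1699.9, 1669 and 1677 CPM in fed N2, against 1589.5, 1614 and 1611 CPM in starved N2, and at 1582, 1662 and 1638 CPM in fed rsks-1, against 1907, 1935 and 1911 CPM in starved rsks-1. The rsks-1 libraries were well apart, those of N2 barely. The log2 change of lev-11 was 0.07 in N2 (SE 0.03, adjusted p = 0.0159) and -0.24 in rsks-1 (SE 0.03, adjusted p = 6.99e-15). The N2 call did not hold without starved N2 replicate 1 (0.06, adjusted p = 0.075), and with library totals alone the value was -0.23. In raga-1 the value was -0.06 (SE 0.03, adjusted p = 0.0377), a call lost without any 1 of 17 libraries, that is each except starved raga-1 replicate 1 (values -0.06 to -0.04, adjusted p from 0.0541 to 0.237). The difference between raga-1 and N2 was -0.13 (SE 0.04, adjusted p = 0.00206), and it was not called with library totals alone (0.07, adjusted p = 0.0787) or when raga-1 and N2 libraries were fitted alone (-0.03, adjusted p = 0.555).

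Of the giants, twitchin was at 352, 359.8 and 370.4 CPM in fed N2, against 644, 530.0 and 545 CPM in starved N2, where replicate 1 stood apart. It was at 327, 325 and 297 CPM in fed rsks-1, against 622, 628 and 635 CPM in starved rsks-1. It was at 601, 599 and 609.6 CPM in fed raga-1, against 729, 751 and 777 CPM in starved raga-1. Fed libraries of unc-22 lay below starved ones in each genotype. The log2 changes were -0.32 in raga-1 (SE 0.06, adjusted p = 0.000208), -0.99 in rsks-1 (SE 0.06, adjusted p = 9.88e-10) and -0.67 in N2 (SE 0.06, adjusted p = 1.18e-07). The fall was smaller in raga-1 than in N2 (difference 0.35, SE 0.08, adjusted p = 0.00288) and larger in rsks-1 than in N2 (difference -0.32, SE 0.09, adjusted p = 0.0109), the second not with library totals alone (-0.22, adjusted p = 0.104).

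Obscurin was at 369, 374 and 381 CPM in fed N2, against 399, 364 and 375 CPM in starved N2, so that the libraries overlapped, and its log2 change was -0.02 (SE 0.03, adjusted p = 0.669), or -0.32 with library totals alone (adjusted p = 2.33e-12). In rsks-1, with 298 to 328 CPM in fed and 397 to 418 CPM in starved libraries, unc-89 fell (log2 change -0.37, SE 0.03, adjusted p = 5.76e-18), and the difference from N2 was -0.36 (SE 0.05, adjusted p = 1.41e-09). In raga-1, with 564 to 595 CPM in fed and 593 to 647 CPM in starved libraries, which overlapped, the change was -0.11 (SE 0.03, adjusted p = 0.00299), a call lost without fed raga-1 replicate 2 (-0.08, adjusted p = 0.0554).

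The immunoglobulin protein dim-1 rose most on feeding. It was at 636, 651 and 632 CPM in fed N2, against 279, 288 and 293 CPM in starved N2. In fed rsks-1 it was at 653, 688 and 683 CPM, against 408, 414 and 415 CPM in starved rsks-1. In fed raga-1 it was at 796, 785 and 806 CPM, against 699.7, 708 and 684 CPM in starved raga-1. No fed library overlapped a starved one of its genotype, and starved raga-1 libraries were above all N2 libraries. The log2 changes were 0.19 in raga-1 (SE 0.03, adjusted p = 5.23e-09), 0.71 in rsks-1 (SE 0.03, adjusted p = 6.13e-47) and 1.16 in N2 (SE 0.03, adjusted p = 8.83e-68). The rise was smaller than in N2 in raga-1 (difference -0.97, SE 0.04, adjusted p = 2.43e-44) and in rsks-1 (difference -0.44, SE 0.04, adjusted p = 6.75e-17).

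Responses are compared here as signed log2 changes. A lower one can be a smaller rise, a larger fall or a fall instead of a rise. Counted over the 10 genes, the feeding response of raga-1 was lower than that of N2 in 4 genes and higher in 3, where 28.8% of all tested genes were lower and 21.8% higher. Among genes called there, 43.1% were higher, against 61.7% with library totals alone, which also turned the members' count to 5 higher and 2 lower. The difference of myo-3 was -0.08 (SE 0.04, adjusted p = 0.0857), called without fed N2 replicate 1, starved raga-1 replicate 1 or fed raga-1 replicate 3 (-0.11, adjusted p from 0.0307 to 0.0354), and that of unc-89 was -0.09 (SE 0.05, adjusted p = 0.109), called without starved N2 replicate 1 or starved raga-1 replicate 1 (-0.12, adjusted p from 0.0212 to 0.0335). With library totals alone both differences were above 0, at 0.12 for myo-3 and 0.11 for unc-89. The signed feeding response of rsks-1 was lower than that of N2 in 9 of the 10 genes, all but tni-3, and higher in 0, where 15.8% of all genes were lower and 10.8% higher. Of these, mup-2 and dim-1 rose less than in N2, while unc-54, unc-15 and unc-22 fell more. On the TMM scale myo-3, lev-11 and tnt-2 fell where they rose in N2, and unc-89 fell where it was not called in N2. Of all genes called between rsks-1 and N2, 40.5% were higher, against 62.0% with library totals alone. Set against each other, the response of raga-1 was higher than that of rsks-1 in 8 genes and lower in mup-2 and dim-1, where 18.8% of all genes were higher and 25.3% lower (42.7% of the called genes higher, against 54.2% with library totals alone). All 3 differences rest on shared libraries and are not independent of each other.

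The second question is how the mutants differ from N2 in the same state. In starved raga-1 against starved N2, 9 of the 10 genes were higher and 0 lower, with myo-3 not past the test, where 27% of all tested genes were higher and 25.7% lower. Among called genes here, 51.2% were higher, against 67.5% with library totals alone. The members' median log2 change was 0.60, beside -0.01 over all tested genes. In fed raga-1 against fed N2 the same count of 9 higher and 0 lower stood beside 28.9% and 34.4% of all genes, with a median of 0.59 beside 0.01. Of all genes called in fed larvae, 45.7% were higher, against 71.2% with library totals alone. All 10 were higher in both states with library totals alone, with a median of 0.91 in fed larvae. With each library left out in turn the count stayed at 9 higher in both states, and up to 1 member, myo-3, was called lower in fed raga-1.

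By class, all 4 thin filament genes, both giants and 2 of the 3 thick filament genes were higher in raga-1 in both states. In starved larvae the log2 differences from N2 were 1.28 for dim-1 (SE 0.03, adjusted p = 8.27e-73), 1.09 for mup-2 (SE 0.03, adjusted p = 1.05e-69) and 1.09 for tnt-2 (SE 0.03, adjusted p = 2.61e-65). The other genes called were between 0.39 (unc-22, SE 0.06, adjusted p = 4.13e-05) and 0.73 (unc-89, SE 0.03, adjusted p = 1.45e-37). In fed larvae the largest differences were 1.19 for tni-3 (SE 0.05, adjusted p = 4.38e-44), 0.87 for tnt-2 (SE 0.03, adjusted p = 2.57e-54) and 0.74 for unc-22 (SE 0.06, adjusted p = 4.86e-08), and the smallest 0.18 for mup-2 (SE 0.03, adjusted p = 2.19e-09) and 0.31 for dim-1 (SE 0.03, adjusted p = 2.81e-18). Thus tnt-2, at 767, 748 and 749 CPM in fed raga-1 and at 411, 416 and 408 CPM in fed N2, was far apart between the genotypes in both states, while mup-2 and dim-1 were further apart in starved larvae.

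The myosins did not move together in raga-1. Against N2, unc-54 was higher by 0.53 on the log2 scale in starved (SE 0.03, adjusted p = 1.51e-36) and 0.56 in fed larvae (SE 0.03, adjusted p = 2e-38), and unc-15 by 0.48 and 0.62 (SE 0.03 each, adjusted p = 4.27e-36 and 1.7e-46). For myo-3 the differences were 0.02 in starved (SE 0.03, adjusted p = 0.543) and -0.06 in fed larvae (SE 0.03, adjusted p = 0.0631), with libraries overlapping in both states. Library totals alone gave myo-3 differences of 0.14 in starved (adjusted p = 1.93e-05) and 0.26 in fed larvae (adjusted p = 2.07e-13). The difference in fed larvae was called without fed N2 replicate 1, fed raga-1 replicate 3 or fed rsks-1 replicate 1 (values -0.09 to -0.06, adjusted p from 0.0157 to 0.0482).

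**Figure D3:**
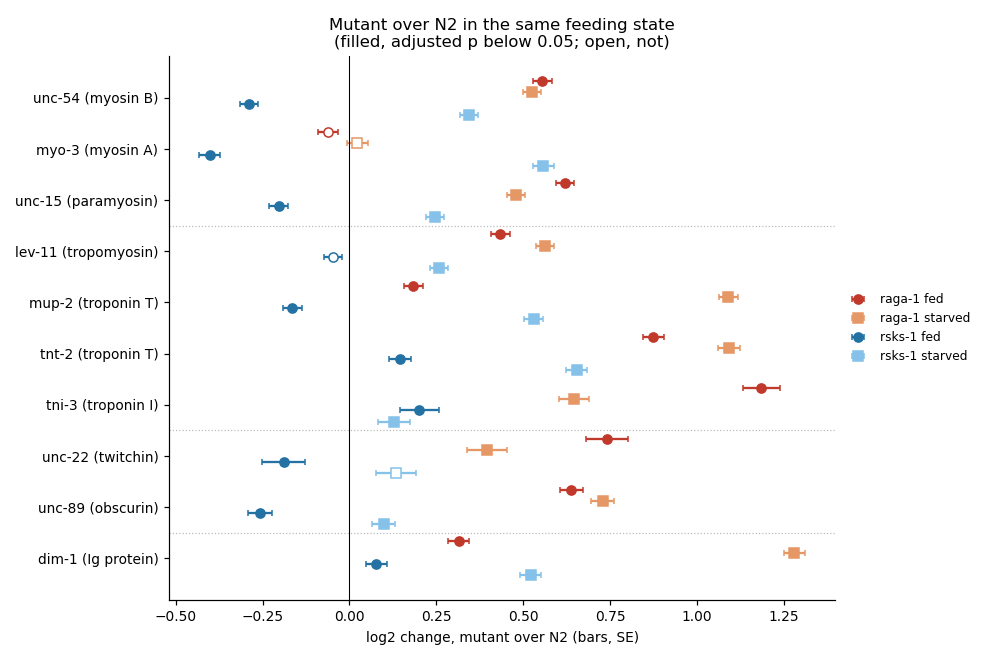
Log2 difference of raga-1 and rsks-1 from N2 in the same feeding state for each gene (edgeR quasi-likelihood fit, bars SE). Filled symbols passed an adjusted p of 0.05 and open symbols did not. The raga-1 symbols lie right of 0.1 for every gene except myo-3, and the rsks-1 symbols run from 0.10 to 0.65 in starved larvae and from -0.40 to 0.20 in fed larvae. All symbols are on the TMM scale. With library totals alone, which is not drawn, the value of myo-3 in fed raga-1 is 0.26 and that of lev-11 in fed rsks-1 is 0.02.

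In starved rsks-1 against starved N2, 9 genes were higher and 0 lower, where 15.1% of all tested genes were higher and 11.9% lower, with a median of 0.30 beside -0.01 over all genes. Of the calls in this comparison, 55.9% were higher, against 45.4% with library totals alone. The largest differences were 0.65 for tnt-2 (SE 0.03, adjusted p = 4e-41), 0.56 for myo-3 (SE 0.03, adjusted p = 5.88e-36), 0.53 for mup-2 (SE 0.03, adjusted p = 1.62e-36) and 0.52 for dim-1 (SE 0.03, adjusted p = 5.95e-32). Myosin B, paramyosin and tropomyosin were higher by 0.34, 0.25 and 0.26 (SE 0.03 each, adjusted p = 3.67e-22, 5.37e-15 and 1.12e-15). The calls of tni-3 (0.13, SE 0.05, adjusted p = 0.026) and unc-89 (0.10, SE 0.03, adjusted p = 0.02) were each lost with library totals alone. That of tni-3 was also lost without any 1 of starved N2 replicates 1, 2 or 3 or starved rsks-1 replicates 2 or 3 (adjusted p from 0.0516 to 0.18), and that of unc-89 without starved N2 replicates 2 or 3 or starved rsks-1 replicate 1 (adjusted p from 0.0865 to 0.188). For unc-22 the difference was 0.13 (SE 0.06, adjusted p = 0.113), and without starved N2 replicate 1, the library that stood apart, it was 0.22 (adjusted p = 5.91e-08).

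In fed rsks-1 against fed N2, 3 genes were higher and 6 lower (2 and 7 with RLE size factors), where 17.4% of all tested genes were higher and 22.6% lower, with a median of -0.18 beside -0.00 over all genes. For calls over all genes, 43.6% were higher, against 56.9% with library totals alone. All 3 thick filament genes were lower: myo-3 (log2 difference -0.40, SE 0.03, adjusted p = 3.57e-24), unc-54 (-0.29, SE 0.03, adjusted p = 1.12e-17) and unc-15 (-0.20, SE 0.03, adjusted p = 2.94e-11). Both giants were lower as well, unc-89 at -0.26 (SE 0.03, adjusted p = 5.9e-10) and unc-22 at -0.19 (SE 0.06, adjusted p = 0.025). The thin filament genes were split, with mup-2 lower (-0.16, SE 0.03, adjusted p = 1.73e-07), tnt-2 and tni-3 higher (0.14 and 0.20, SE 0.03 and 0.06, adjusted p = 4.6e-05 and 0.00243) and lev-11 at -0.05 (SE 0.03, adjusted p = 0.141), a value of 0.02 with library totals alone. The call of tni-3 was lost without fed rsks-1 replicate 2 (0.15, adjusted p = 0.0644), and that of unc-22 without fed N2 replicates 2 or 3 or fed rsks-1 replicate 3 (-0.19 to -0.15, adjusted p from 0.0567 to 0.0811). The small difference of dim-1 (0.08, SE 0.03, adjusted p = 0.0282) was lost without fed N2 replicates 1 or 3 or fed rsks-1 replicates 2 or 3 (0.06 to 0.07, adjusted p from 0.0891 to 0.162). The comparisons of raga-1 and of rsks-1 with N2 use the same N2 libraries.

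Ratios within a library do not depend on its scaling. The ratio of unc-54 to myo-3 per kb was 5.75 ± 0.00346 in fed and 7.83 ± 0.127 in starved raga-1, 4.05 ± 0.0187 in fed and 4.76 ± 0.0936 in starved rsks-1, and 3.75 ± 0.0843 in fed and 5.52 ± 0.0647 in starved N2. Libraries of the 6 groups did not overlap in this ratio, and that of starved raga-1 was highest. Between the troponins T, mup-2 to tnt-2 was 1.81 ± 0.0131 in fed and 1.67 ± 0.0445 in starved raga-1, 2.37 ± 0.0906 in fed and 1.53 ± 0.0107 in starved rsks-1, and 2.93 ± 0.00940 in fed and 1.67 ± 0.0142 in starved N2. Starved raga-1 and starved N2 overlapped. The ratio of mup-2 to tni-3 was 7.66 ± 0.103 in fed and 5.07 ± 0.0904 in starved raga-1, 11.96 ± 0.570 in fed and 4.94 ± 0.249 in starved rsks-1, and 15.3 ± 0.712 in fed and 3.73 ± 0.0405 in starved N2, so that it was 4.11-fold higher in fed than in starved N2. This ratio does not stand for troponin I as a whole, since tni-3 was less abundant than the troponin I genes tni-1 and unc-27. In N2, tni-1 was at 503 CPM in fed and 245 CPM in starved larvae, and unc-27 at 279 and 338 CPM.

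Summed per kb, the 3 thick filament genes stood to the 4 thin filament genes as 0.484 ± 0.0114 in fed and 0.577 ± 0.0125 in starved raga-1, 0.394 ± 0.0165 in fed and 0.681 ± 0.00924 in starved rsks-1, and 0.456 ± 0.0103 in fed and 0.695 ± 0.00489 in starved N2. Fed libraries were lower than starved ones in each genotype without overlap, and starved rsks-1 and starved N2 overlapped. The thin filament sum holds no actin gene and rests mostly on lev-11, at 1514 of 2264 CPM per kb in starved N2. All isoforms of lev-11 are counted in it, at the same length in every group. The ratio of unc-54 to unc-15 moved least, between 0.993 ± 0.0210 in fed rsks-1 and 1.13 ± 0.0154 in starved rsks-1, and fed and starved N2 overlapped at 1.05 ± 0.0259 and 1.06 ± 0.0137. Over 6 ratios and 7 comparisons between groups, libraries stayed apart in 36 of 42, each with p = 0.1 in a two-sided exact permutation test, the smallest that 3 against 3 libraries allow (0.117 after Benjamini-Hochberg adjustment over the 42). The ratios share genes and libraries. How often ratios of other genes stay apart was not computed, so the count is not particular to these genes.

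**Figure D4:**
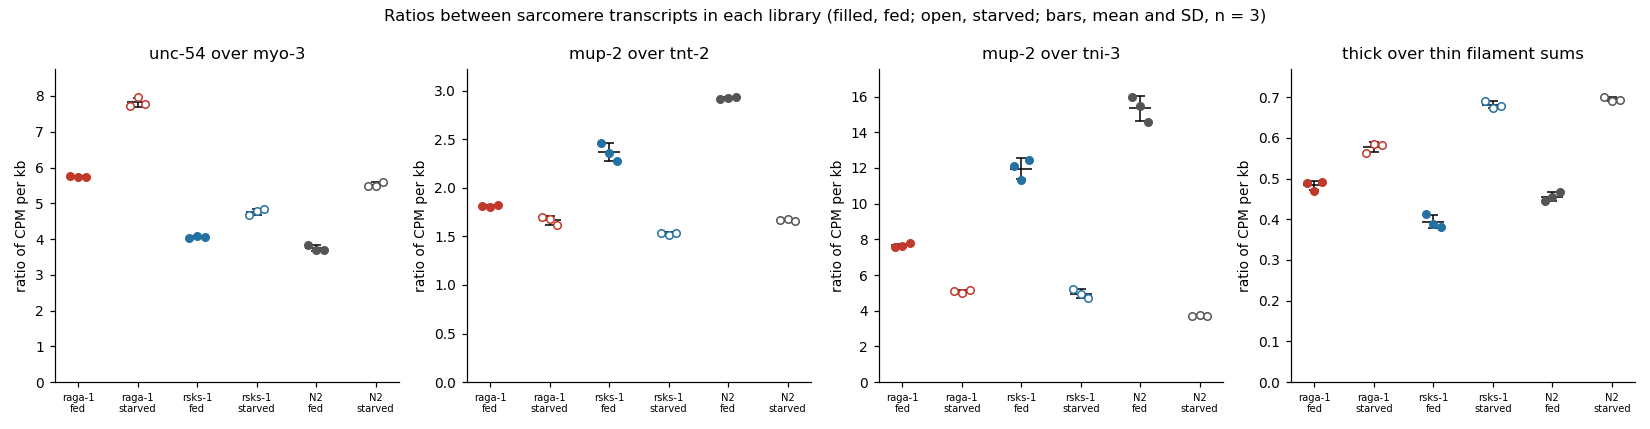
Ratios of CPM per kb in every library, by genotype and feeding state, on linear axes starting at 0. Filled points are fed and open points starved larvae, and bars give the mean and SD of 3 libraries. The ratio of mup-2 to tni-3 averages 15.3 in fed and 3.73 in starved N2, with raga-1 at 7.66 in fed and 5.07 in starved larvae.

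The gene lev-11 makes many isoforms, and as background its pair of promoters gives body wall muscle forms from the upstream start and forms of other tissues from the internal one. In the authors' isoform estimates, 9 of 24 isoforms began within 1000 bases of the upstream end of the gene. They took 65.7 ± 1.12% of the gene's counts in fed and 62.7 ± 2.04% in starved raga-1, 67.7 ± 1.99% in fed and 65.2 ± 0.730% in starved rsks-1, and 63.7 ± 2.38% in fed and 55.6 ± 0.480% in starved N2. The starved N2 libraries, at 55.1, 55.6 and 56.1%, were below all others. In CPM, upstream isoforms were at 1086, 1101 and 1027 in fed N2, against 876, 897 and 903 in starved N2, while internal ones were at 614, 568 and 651 in fed N2, against 714, 717 and 708 in starved N2. For upstream isoforms every fed N2 library lay above every starved one, and for internal isoforms every fed one lay below. These values divide reads shared between isoforms and were not tested. For dim-1 the short variant took 95 ± 0.5% to 97.9 ± 0.39% of the gene's counts over the 6 groups.

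Other genes of the contractile apparatus were taken from lists chosen with results of these libraries known, so that their counts are descriptions. Over all tested genes the median log2 change was -0.01 in starved raga-1, 0.01 in fed raga-1 and -0.07 on feeding in N2. Of these genes, 27% were higher and 25.7% lower in starved raga-1, and 28.9% and 34.4% in fed raga-1. Feeding in N2 raised 36.5% and lowered 37.4%. With library totals alone, 5032 of 14073 genes were higher and 2423 lower in starved raga-1, and 6609 and 2673 in fed raga-1. Feeding in N2 then raised 3835 and lowered 6933. The medians in fed raga-1 with library totals alone were 0.38 for the other thin filament genes, 0.95 for the other thick filament and giant protein genes, 0.52 for dense body genes, 0.68 for excitation genes, 0.78 for pharyngeal genes and 0.71 for neuron markers, beside 0.33 over all genes. Those on feeding in N2 were 0.17, -0.86, -0.03, -0.48, -1.05 and -0.67 in the same order, beside -0.37 over all genes. Of 13 other thin filament genes tested, 10 were higher and 1 lower in starved raga-1 than in starved N2 (median log2 difference 0.40). In fed larvae 6 were higher and 4 lower (median 0.06), or 10 and 1 with library totals alone. On feeding in N2, 8 rose and 4 fell. The actin gene act-2 rose on feeding, with a log2 change of 2.53 in N2 (SE 0.04, adjusted p = 3.24e-98), of 1.62 in rsks-1 (SE 0.03, adjusted p = 1.66e-78) and of 0.39 in raga-1 (SE 0.04, adjusted p = 2.82e-19), and was lower in fed raga-1 than in fed N2 (-1.71, SE 0.03, adjusted p = 1.86e-80). It was the least abundant of the 4 actin genes on this list, at 567 CPM in fed and 97.9 CPM in starved N2. The genes act-1, act-3 and act-4 were at 2929, 3132 and 2694 CPM in fed N2, against 2109, 2037 and 1876 CPM in starved N2. In fed raga-1 these 3 were at 2618, 3376 and 2657 CPM. Actin genes are near-identical copies, so the split of reads between them is uncertain. The troponin I gene tni-1 and unc-60, which encodes the actin-severing protein cofilin, rose on feeding in N2 (1.04 and 0.90, SE 0.03 and 0.05), with tni-1 higher in raga-1 than in N2 both in starved (0.83, SE 0.03) and in fed larvae (0.25, SE 0.03).

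Of 7 other thick filament and giant protein genes, 6 were higher and 0 lower in starved raga-1 than in starved N2 (median 0.35), and 5 were higher and 1 lower in fed raga-1 than in fed N2 (median 0.63). On feeding in N2, 2 of them rose and 5 fell (median -0.55). The myosin light chains mlc-2 and mlc-1, close copies whose reads may be divided wrongly, fell on feeding in N2 (-1.10 and -0.69, SE 0.03 each), while the myosin chaperone unc-45 rose (0.94, SE 0.06). Of 20 dense body and M-line genes, 16 were higher and 2 lower in starved raga-1 (median 0.49), and 14 and 2 in fed raga-1 (median 0.20), or 18 and 1 there with library totals alone. On feeding in N2, 11 rose and 8 fell, or 7 and 9 with library totals alone. Perlecan (unc-52), which lies in the matrix under the muscle, rose by 1.99 (SE 0.03), kindlin (unc-112) rose by 0.94 (SE 0.04) and cpna-1, a copine domain protein at attachment sites, had a log2 change of -0.99 (SE 0.04).

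Of 14 genes of muscle excitation and calcium handling, 11 were higher and 0 lower in starved raga-1 than in starved N2 (median 0.32), and 13 and 0 in fed raga-1 (median 0.36). Several of these receptors and channels also act in neurons. On feeding in N2, 0 rose and 6 fell, where 36.5% of all tested genes rose and 37.4% fell. Among those that fell were the GABA receptor unc-49 (-0.56, SE 0.05) and the acetylcholine receptor subunits unc-29 and unc-38 (-0.45 and -0.42, SE 0.14 and 0.11). With library totals alone 12 fell, where 6933 of 14073 tested genes fell. Of the body wall muscle transcription factors, hlh-1, the nematode MyoD, was at 22.8 ± 0.582 CPM in fed and 18.3 ± 2.93 in starved raga-1, 22.5 ± 1.85 in fed and 16.7 ± 0.234 in starved rsks-1, and 20.7 ± 1.60 in fed and 14.8 ± 1.42 in starved N2. It rose on feeding in N2 (0.48, SE 0.11, adjusted p = 4.17e-05), and unc-120, which encodes the serum response factor, had a smaller change (0.17, SE 0.07, adjusted p = 0.0218). With library totals alone neither was called. The third factor, hnd-1, of early embryos, was below 0.2 CPM on average in every group and was not tested.

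Markers of other cells were set beside the members. The shares of all tested genes given above for the muscle lists are the background of these counts as well. In rsks-1 against N2, 11.9% of all tested genes were lower in starved and 22.6% in fed larvae. Feeding in rsks-1 lowered 35.2%. The sarcomere genes of the pharynx, a separate muscle with its own myosins, did not follow the body wall genes in starved raga-1: of 5, 1 was higher and 3 lower than in starved N2 (median -0.07), with summed levels of 3342 to 3533 CPM in starved raga-1 and 3599 to 3688 CPM in starved N2. With library totals alone 2 were higher and 0 lower. In fed raga-1 all 5 were higher than in fed N2 (median 0.46), with sums of 2802 to 2952 CPM in fed raga-1 and 2172 to 2251 CPM in fed N2. In rsks-1 all 5 were lower than in N2 both starved (median -0.26) and fed (median -0.49). On feeding all 5 fell in N2 (median -0.75) and in rsks-1 (median -1.08), with tnc-2 at -0.99 (SE 0.04), the pharyngeal myosin myo-1 at -0.76 (SE 0.03) and tni-4 at -0.75 (SE 0.04) in N2.

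Of 10 neuron markers, 5 were higher and 2 lower in starved raga-1 (median 0.10), with sums of 2655 to 2688 CPM in starved raga-1 and 2709.6 to 2734 CPM in starved N2. In fed raga-1 9 were higher and 0 lower (median 0.39), with sums of 2176 to 2212 CPM in fed raga-1 and 1540.5 to 1583 CPM in fed N2. All 10 fell on feeding in N2 (median -0.37), led by the neuropeptide processing genes sbt-1 (-1.25, SE 0.03) and egl-21 (-1.04, SE 0.03). Intestine and hypodermis markers moved both ways in starved raga-1, with 4 higher and 2 lower of 8 and with 2 higher and 3 lower of 8. On feeding in N2, 4 rose and 3 fell of the intestine markers, and 6 rose and 0 fell of the hypodermis markers, among them col-10 (2.21, SE 0.03). Of 6 germline markers tested, 2 were higher and 0 lower in starved raga-1. No gene of the pharynx or neuron lists was at 0 in any group. Whether the shares of these tissues in the RNA contribute to the members' changes was not tested.

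**Figure D5:**
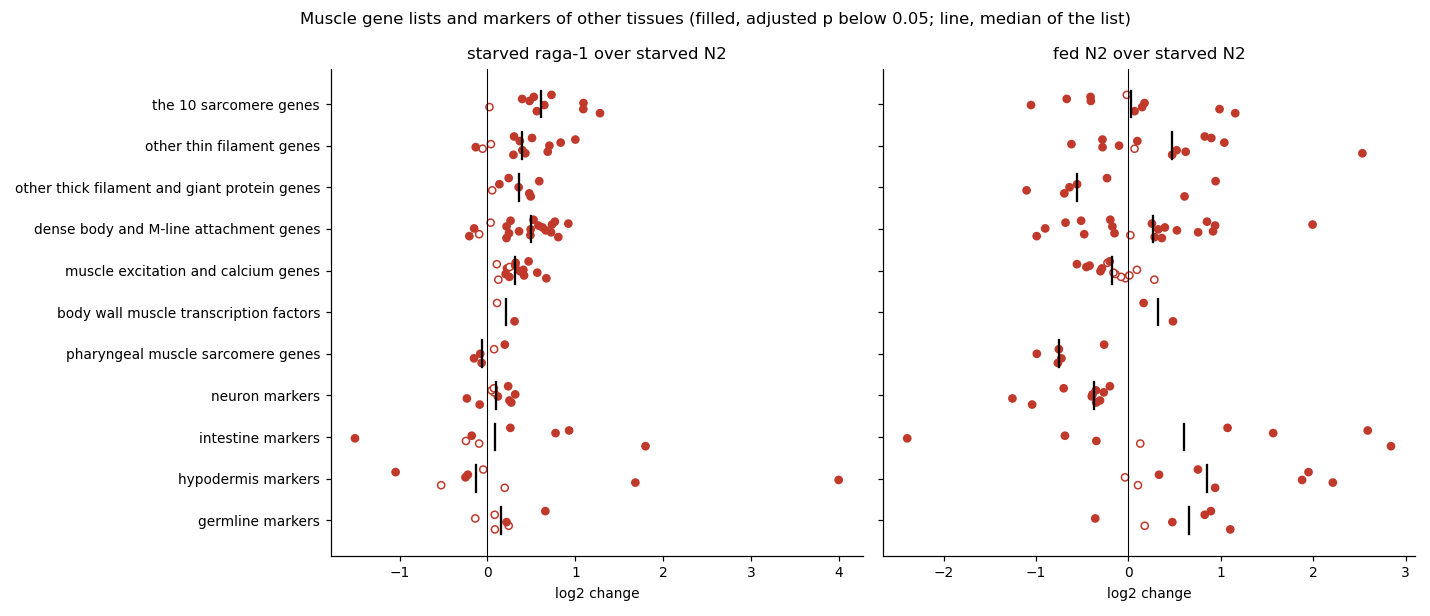
Log2 change of each gene in the muscle lists and in the lists of other cells, for starved raga-1 over starved N2 and for fed over starved N2 (filled, adjusted p below 0.05, black line, median of the list). In starved raga-1 the medians are 0.60 for the 10 sarcomere genes and -0.07 for the pharyngeal genes. On feeding in N2 they are 0.03 and -0.75, and with library totals alone, which is not drawn, -0.28 and -1.05.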

How the data were processed

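Expected counts of genes and isoforms were deposited, which the authors made with STAR in a 2-pass alignment and RSEM, per the labels' protocols and the submitters' processing notes, which also name DESeq2. Their versions, the library kit and the strand setting were not stated in the labels. The labels call the genome WBcel269. Names, lengths and coordinates were taken from the Ensembl annotation of WBcel235, which named 44017 of 46904 genes and matched 61362 of 61451 isoforms. Counts were rounded (0.962% were not whole), filtered with filterByExpr (minimum count 10) and scaled by TMM. edgeR 4.0.16 in R 4.3.3 fitted 1 mean for each of 6 groups to all 18 libraries by robust quasi-likelihood (12 residual degrees of freedom, common biological coefficient of variation 0.042). It tested 10 comparisons with Benjamini-Hochberg adjustment over 14073 genes, and was tested on simulated data. SE is the size of the log2 change divided by the square root of F. DESeq2 1.42.0 and limma 3.58.1 were loaded, DESeq2 as an alternative. Ratios were tested with exact permutation tests. Python 3.11.15, pandas 2.3.3, NumPy 2.4.6 and matplotlib 3.10.9 were used.

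All 10 sarcomere genes are named, and from each other list up to 3 genes with the largest called change on feeding in N2. The members and the lists were chosen with earlier results of these data known. Of 107 listed genes, 106 were found by name, and tmd-1 was not analysed here. Libraries of 1 group differed by more than counting error, with a mean chi-square per gene of 2.12 to 5.98 over 18 pairs, where counting error alone gives 1 (genes with at least 20 counts in a pair). Alternatives were other scalings, no filter, DESeq2, a fit of the compared libraries alone, the replicate number as a block, each library left out, and the longest transcript for levels per kb. The replicate numbers do not pair the libraries.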

Additional observations from a re-analysis of the deposited data

Results flagged for a closer look

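The response to feeding differed between genotypes in 26 of 30 tests (edgeR quasi-likelihood interaction, Benjamini-Hochberg adjusted p below 0.05, differences of log2 changes). These tests rest on shared libraries and are not independent of each other. Over all tested genes, 28.8% were lower and 21.8% higher for raga-1 against N2. The shares were 15.8% and 10.8% for rsks-1 against N2, and 25.3% and 18.8% for raga-1 against rsks-1. The members' differences are given as values, and no cause was tested. No search for single libraries far from the others was made, since each group has 3. By eye, 1 value stood apart, that of unc-22 in starved N2 replicate 1 (644 CPM, against 530.0 and 545 CPM in the other libraries of the group).

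Between raga-1 and N2 the signed log2 change on feeding was lower in raga-1 for dim-1 by -0.97, mup-2 by -0.91, tnt-2 by -0.22 and lev-11 by -0.13. It was higher for tni-3 by 0.54, unc-22 by 0.35 and unc-15 by 0.14, all of which fell less in raga-1 than in N2. For tnt-2 the difference was not called with library totals alone (-0.02, adjusted p = 0.758).

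Between rsks-1 and N2 every difference called was negative: -0.96 for myo-3, -0.69 for mup-2, -0.63 for unc-54, -0.51 for tnt-2, -0.45 for unc-15, -0.44 for dim-1, -0.36 for unc-89, -0.32 for unc-22 and -0.30 for lev-11. The genes that rose and the genes that fell in N2 were both among them.

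Between raga-1 and rsks-1 the difference was positive for myo-3 (0.88), unc-22 (0.67), unc-54 (0.66), unc-15 (0.59), tni-3 (0.47), tnt-2 (0.29), unc-89 (0.27) and lev-11 (0.18), and negative for dim-1 (-0.52) and mup-2 (-0.21).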

How the results depend on the processing

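With library totals alone, which takes no account of composition, members called on feeding were 2 higher and 8 lower in N2 and 1 higher in raga-1, and 5 higher and 2 lower for the response of raga-1 against N2. Over all genes, the response of rsks-1 against N2 was then higher in 2350 and lower in 1441 (1514 and 2223 with TMM), and fed raga-1 against fed N2 gave 6609 higher and 2673 lower (4070 and 4841 with TMM). Signs turned under library totals alone on feeding in N2 for myo-3 (-0.15), lev-11 (-0.23) and tnt-2 (-0.13), on feeding in raga-1 for myo-3 (-0.036) and mup-2 (-0.021), for the response of raga-1 against N2 in myo-3 (0.12), lev-11 (0.073) and unc-89 (0.11), in fed raga-1 for myo-3 (0.26) and in fed rsks-1 for lev-11 (0.020). Fitting the compared libraries alone gave 0.012 for myo-3 and 0.0071 for unc-89 in the response of raga-1 against N2, and 0.0058 for myo-3 in fed raga-1. With 1 library left out, unc-89 on feeding in N2 ranged from -0.040 to 0.017 (the higher value without starved N2 replicate 1), unc-54 in the response of raga-1 against N2 from -0.0017 to 0.067, and myo-3 in starved raga-1 from -0.0012 to 0.044, the low values without starved raga-1 replicates 1 and 2 in turn. Members lower in fed raga-1 then numbered 0 to 1 and members higher in fed rsks-1 1 to 3. On the longest transcript the highest level per kb in starved N2 was 68.15 times the lowest (60.4 weighted over isoforms). The replicate numbers did not pair the libraries (correlations of deviations from -0.041 to 0.032 over 21 pairs, 5 closest to their own number), and with the number as a block feeding in N2 called 5117 genes higher and 5245 lower, and the one member call lost was myo-3 on feeding in raga-1 (adjusted p = 0.0529). The cause of these shifts was not tested. Other single calls changed as well. That of lev-11 on feeding was lost with RLE size factors in N2 (adjusted p = 0.0656) and raga-1 (adjusted p = 0.0711), in raga-1 without the filter (adjusted p = 0.168), and with the compared libraries alone in N2 (0.036, adjusted p = 0.251) and raga-1 (-0.017, adjusted p = 0.641). With RLE size factors lev-11 was called (-0.07, adjusted p = 0.0306) and dim-1 not (0.06, adjusted p = 0.117) in fed rsks-1. Fitting the compared libraries alone lost unc-89 on feeding in raga-1 (-0.06, adjusted p = 0.0838), and without the filter dim-1 was lost in fed rsks-1 (adjusted p = 0.0516). DESeq2 did not call myo-3 on feeding in raga-1 (adjusted p = 0.0626), unc-89 in starved rsks-1 (adjusted p = 0.0807) or dim-1 in fed rsks-1 (adjusted p = 0.0867), and called lev-11 in fed rsks-1 (-0.07, adjusted p = 0.0114). Without the filter unc-22 was called in starved rsks-1 (0.14, adjusted p = 0.000257), and with library totals alone unc-22 was not called in fed rsks-1 (-0.12, adjusted p = 0.177). Sums of isoform counts changed no call of a member. What limits these small changes was not tested. The lowest count was 432, of tni-3, and there counting error may not be small beside the spread between libraries.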

Other observations

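Outside the 10 sarcomere genes, the 8 tested genes with a standard gene name whose 6 group means lay closest to the members' median profile were str-162, frpr-6, nmat-1, nas-36, acl-12, nmur-3, zyx-1 and cht-6. Likeness was the root mean square difference of centred log2 group means over the 6 groups, from 0.0621 for str-162 to 0.096 for cht-6. Of these, zyx-1, which encodes zyxin and is on the dense body list, averaged 335 CPM and acl-12 averaged 30.1 CPM. The other 6 averaged between 0.51 CPM (cht-6) and 5.35 CPM (nmur-3), so that few counts lie behind their profiles.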
